A study of Mus musculus with 21 samples.

Results

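The 9 genes described here are imprinted genes of fetal growth: H19, Igf2, Dlk1, Meg3, Peg3, Plagl1, Mest, Cdkn1c and Grb10. They were taken by symbol from all 21 libraries, out of 23204 symbols counted. The set was chosen by the measured rise of H19 in injured lung fibroblasts, so the H19 values below are a description and carry no test. Of the 9 genes, 8 passed a filter on low counts, which 11669 symbols passed in all. Dlk1 did not pass.

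The fibroblasts came from the lungs of female C57BL/6 mice that carry the Col1a2-GFP transgene, in which a Col1a2 promoter drives green fluorescent protein. All 7 groups share this strain, sex and transgene; an age was not given in the sources used here. Lungs were left untreated, or were taken at day 7, 14 or 63 after a single aspirated dose of bleomycin (BLM, 2 mg/kg, the model described as reversible) or of crystalline silica (SiO2, 400 mg/kg, described as progressive). Cells with surface markers of blood, endothelium, epithelium or pericytes were depleted and the GFP-positive rest was sorted, so the data cover fibroblasts with an active Col1a2 promoter. Each group had 3 libraries of tags from the 3′ ends of polyadenylated RNA. Total counts ran from 2080636 to 4477283 per library, with a median of 3774431. No group given the vehicle alone was analysed here. The labels do not say whether libraries of a group came from separate mice, so p-values measure the spread between these libraries, which may be technical.

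In imprinted genes, only the maternal or only the paternal copy is active, at least in some tissues. The counts here do not separate the parental copies. H19, a long noncoding RNA, and Igf2, a fetal growth factor, are neighbours that share enhancers and a control region, and H19 is read from the maternal and Igf2 from the paternal copy. Dlk1, a Notch-like membrane protein that restrains fat-cell differentiation, and the noncoding RNA Meg3 form a second such pair. Most of these genes are abundant in fetal mesenchyme and decline after birth.

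The positions below are from GENCODE vM21 on GRCm38, the assembly that mm10 denotes. H19 lies on chromosome 7 from 142575529 to 142578143 on the minus strand, and Igf2 lies on the same strand from 142650766 to 142666816, with 72.6 kb between them. Cdkn1c lies on chromosome 7 from 143458339 to 143461050, also on the minus strand, 791.5 kb from Igf2. Dlk1 (chromosome 12, 109452823 to 109463336) and Meg3 (chromosome 12, 109541001 to 109571726) are both on the plus strand with 77.7 kb between them. Peg3 lies on chromosome 7 from 6703892 to 6730431 (minus), Plagl1 on chromosome 10 from 13060504 to 13131694 (plus), Mest on chromosome 6 from 30723547 to 30748465 (plus) and Grb10 on chromosome 11 from 11930508 to 12038683 (minus). The strand setting of the counting was not given, and annotated genes on the opposite strand overlap exons of H19 (Gm27483 and Gm27786), Igf2 (Igf2os), Meg3 (Gm26906), Plagl1 (Gm27741), Mest (Copg2) and Cdkn1c (Gm44732). Whether counts of these 6 genes include reads of the partner on the opposite strand cannot be told.

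H19, Igf2, Mest and Meg3 host microRNA precursors, and these small RNAs, which lack a poly(A) tail, were not measured by the tag libraries. The mature sequences hosted by H19, Igf2 and Mest are shown because a host transcript's tag count is the only readout of the locus here. They are from RefSeq (GRCm38.p6), 5′ to 3′, with the seed (bases 2 to 8) in capitals. The miR-675 pair lies in an H19 exon (chr7:142577078-142577099 and chr7:142577112-142577133, minus strand). The miR-483 pair lies in an Igf2 intron (chr7:142654932-142654952 and chr7:142654968-142654989, minus strand), and the miR-335 pair in a Mest intron (chr6:30741314-30741336 and chr6:30741354-30741375, plus strand). The 6 seeds all differ from each other.
mmu-miR-675-5p: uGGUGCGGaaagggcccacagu
mmu-miR-675-3p: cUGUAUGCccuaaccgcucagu
mmu-miR-483-5p: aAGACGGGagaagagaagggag
mmu-miR-483-3p: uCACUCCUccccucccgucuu
mmu-miR-335-5p: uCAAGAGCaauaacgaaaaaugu
mmu-miR-335-3p: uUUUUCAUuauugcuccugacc

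Promoter windows from 250 bases before to 50 after the gene start were matched for 7 of the 9 genes (RefSeq, GRCm38.p6). The 250 bases upstream of Meg3 and 30 bases upstream of Peg3 are printed because both genes were lower in injured fibroblasts and both windows hold the letters TGACGTCA, the palindromic cAMP response element. For Grb10, which was higher, the 250 bases upstream of the start in the first of its 2 windows are printed too. These bases lie inside the GENCODE span of Grb10 given above, so that start differs from the GENCODE gene start. The motif was chosen after the sequences were seen, and both strands were searched. TGACGTCA was in windows of 2.03% of the 27025 genes with a window. No window of Igf2, Plagl1 or Mest held it, and each of these was also called lower in at least 1 treated group. For Cdkn1c, lower as well, and H19 no window was matched. GGGGCCCC, a motif known for PLAGL1 binding, was in windows of 1.25% of genes and, among the 7, in that of Peg3. Capitals mark TGACGTCA. The GC box GGGCGG (38.2% of genes) was in windows of Igf2, Plagl1, Mest and Grb10, and the letters TATAAA (15.7% of genes) in a window of Meg3. In the Meg3 window TATAAA was found on both strands, in overlapping letters. A match is a description of letters and no evidence of binding.
Meg3, chr12:109540746-109540995, plus strand: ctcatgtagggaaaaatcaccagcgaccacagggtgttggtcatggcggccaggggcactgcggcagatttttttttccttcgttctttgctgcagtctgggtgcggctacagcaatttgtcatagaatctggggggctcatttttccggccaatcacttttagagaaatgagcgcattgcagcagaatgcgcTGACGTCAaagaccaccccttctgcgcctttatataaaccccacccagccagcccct
Peg3, chr7:6730579-6730608, minus strand: actgactccgtTGACGTCAactccgtgcct
Grb10, chr11:12037421-12037670, minus strand: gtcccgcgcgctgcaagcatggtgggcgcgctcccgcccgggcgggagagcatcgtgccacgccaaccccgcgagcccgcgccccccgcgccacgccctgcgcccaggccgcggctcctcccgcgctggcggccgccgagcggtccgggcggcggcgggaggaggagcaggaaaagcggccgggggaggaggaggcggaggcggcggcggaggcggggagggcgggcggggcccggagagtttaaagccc
The TGACGTCA of Meg3 begins 57 bases and that of Peg3 178 bases upstream of the start. The Peg3 motif (chromosome 7, 6730590 to 6730597) also lies in an annotated exon of Usp29, an imprinted gene read from the opposite strand. GC content of the 250 upstream bases was 52.4% for Meg3, 60.4% for Peg3 and 81.2% for Grb10.

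H19 was close to absent in untreated fibroblasts and most abundant at day 7 of silica. Levels here are CPM, tag counts scaled to a common library total. The untreated libraries held 3, 1 and 0 H19 counts, or 0.777, 0.251 and 0 CPM. At day 7 of BLM the libraries held 15.7, 29.6 and 34.5 CPM, and at day 14 they held 23.7, 17.3 and 15.2 CPM. At day 63 of BLM they were back at 0.249, 1.15 and 0 CPM, which overlaps the untreated libraries. At day 7 of silica the libraries held 106, 115 and 139 CPM, from 421, 434 and 549 counts, above every library of the other groups. At day 14 of silica they held 8.62, 6.13 and 2.43 CPM, and at day 63 they held 2.63, 1.60 and 1.56 CPM. The day 14 and day 63 silica libraries overlap each other, and all 6 lie above the untreated ones.

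**Figure D1:**
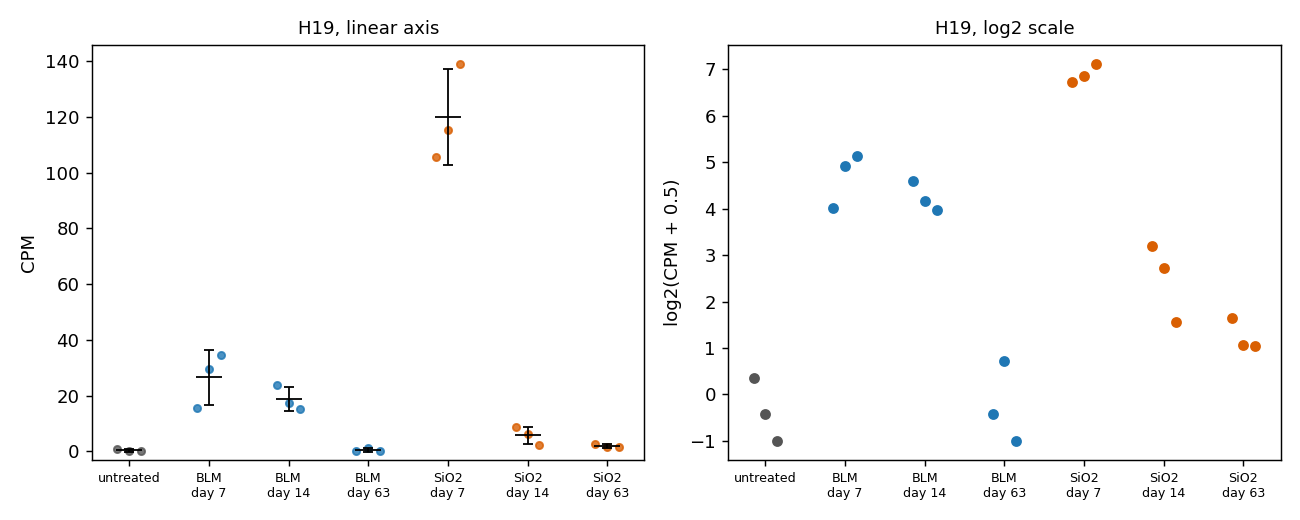
H19 level in each of the 21 libraries by group, on a linear CPM axis (left; black bars are the mean and SD of 3 libraries) and as log2(CPM + 0.5) (right). The 3 silica day 7 libraries lie at 106 to 139 CPM, above all others, and the untreated and BLM day 63 libraries lie at or below 1.15 CPM.

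As ratios of summed counts over summed scaled library totals, H19 at silica day 7 was 299 times the untreated level (exact 95% counting interval 117 to 1100, from 1404 against 4 counts). The ratio to untreated was 66.0 at BLM day 7 (25.5 to 244) and 45.8 at BLM day 14 (17.6 to 170). It was 13.8 at silica day 14 (5.11 to 52.1) and 4.76 at silica day 63 (1.63 to 18.9). These intervals, here and below, come from counts pooled over the 3 libraries of a group. They cover counting error only and leave out the spread between libraries. The tags carry no stated molecular identifiers, so repeated copies of a tag could make the intervals too narrow. All of these ratios rest on the 4 untreated counts, of which untreated replicate 1 held 3. Without that library they were 734 (silica day 7), 162 (BLM day 7), 112 (BLM day 14), 33.8 (silica day 14) and 11.7 (silica day 63). At BLM day 63, 5 counts stood against 4, and no fold is given.

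The models crossed over between day 7 and day 14. Silica exceeded BLM 4.53-fold at day 7 (3.98 to 5.18), whereas BLM exceeded silica 3.33-fold at day 14 (2.48 to 4.52). Within silica the level dropped 21.7-fold from day 7 to day 14 (16.9 to 28.5). Within BLM day 7 was 1.44 times day 14 (1.19 to 1.75), with overlapping libraries, and the large drop came later, 44.1-fold from day 14 to day 63 (18.5 to 137). At day 63 silica was 4.58 times BLM (1.70 to 15.4), with no overlap of libraries. This last ratio was 16.2 without BLM day 63 replicate 2, which held 4 of the 5 BLM counts, and without it the ratio of BLM day 63 to day 14 was 0.00639 in place of 0.0227.

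The 5 genes whose level followed H19 most closely over the 21 libraries, of 7344 compared, were Ppia (Pearson r = 0.961), Hn1l (0.957), Ccna2 (0.954), Ckap4 (0.953) and Gm34865 (0.950). The measure is the correlation of log2 CPM, given as a description. The 21 points share their 7 groups and the library depth. By Spearman rank correlation Ppia ranked 5, Hn1l 7.5, Ccna2 6, Ckap4 24 and Gm34865 3, so the list depends on the measure. Ppia encodes cyclophilin A, a protein-folding enzyme, and went from 95.7 ± 5.48 CPM (SD, n = 3) in untreated to 179 ± 5.38 CPM at silica day 7. Ccna2 encodes cyclin A2, which drives S phase and mitosis, and went from 0.240 ± 0.234 to 11.2 ± 2.52 CPM between the same groups. Ckap4, a membrane protein of the endoplasmic reticulum, went from 28.3 ± 3.09 to 87.9 ± 2.88 CPM. Among the imprinted genes the correlation with H19 was 0.897 for Grb10, 0.396 for Plagl1, 0.0785 for Mest, -0.21 for Peg3, -0.226 for Igf2, -0.49 for Meg3 and -0.763 for Cdkn1c. A proliferation list of 20 genes summed to 31.6 to 43.7 CPM per untreated library, 295 to 359 at BLM day 7 and 335 to 463 at silica day 7. It stood at 134 to 270 CPM at BLM day 14, 48.1 to 92.1 at silica day 14, 29.4 to 37.9 at BLM day 63 and 52.8 to 67.6 at silica day 63. Its part in the H19 levels was not tested.

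Cdkn1c and Grb10, both known as brakes on growth, moved in opposite directions. Fold changes from here on are log2 values from edgeR's quasi-likelihood test, with p-values adjusted by the Benjamini-Hochberg method over all 11669 genes and called under 0.05. The 7 tested genes other than H19 were listed with earlier results of these data in view.

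Cdkn1c encodes p57, an inhibitor of cyclin-dependent kinases that holds cells out of the cycle. The untreated libraries held 102, 91.9 and 105 CPM. BLM libraries fell to 38.9, 26.7 and 31.4 CPM at day 7 and to 22.3, 14.6 and 24.6 CPM at day 14, and stood at 90.1, 83.2 and 87.2 CPM at day 63. Silica libraries held 36.9, 38.8 and 26.3 CPM at day 7, 44.9, 39.2 and 59.0 CPM at day 14 and 50.2, 37.8 and 33.4 CPM at day 63. Every treated library was below every untreated one, with the BLM day 63 libraries nearest to them. Against untreated, Cdkn1c changed by -1.62 ± 0.18 (SE) at BLM day 7 (adjusted p = 1.78e-08) and by -2.28 ± 0.19 at BLM day 14 (adjusted p = 3.89e-11). In silica it changed by -1.55 ± 0.17 at day 7 (adjusted p = 1.19e-08), -1.05 ± 0.17 at day 14 (adjusted p = 1.73e-05) and -1.30 ± 0.17 at day 63 (adjusted p = 4.78e-07). At BLM day 63 the difference of -0.19 ± 0.16 did not pass (adjusted p = 0.508).

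The direct comparison of the models gave a Cdkn1c difference of 0.07 ± 0.19 at day 7 (adjusted p = 0.872). Silica was higher by 1.22 ± 0.19 at day 14 (adjusted p = 2.06e-05) and lower by 1.11 at day 63 (log2 difference -1.11 ± 0.17, adjusted p = 1.28e-05). Within BLM, Cdkn1c rose by 2.08 ± 0.19 from day 14 to day 63 (adjusted p = 3.99e-10), while within silica the change was -0.25 ± 0.17 (adjusted p = 0.534). The interaction, silica's change minus BLM's, was -2.33 ± 0.26 (adjusted p = 6.35e-08). From day 7 to day 14 the interaction was 1.15 ± 0.27 (adjusted p = 0.00237). Its parts were smaller, -0.65 ± 0.20 within BLM (adjusted p = 0.0344) and 0.49 ± 0.18 within silica (adjusted p = 0.0427). The BLM step lost its call without any of BLM day 7 replicate 1 (adjusted p = 0.214), BLM day 7 replicate 3 (0.0611), BLM day 14 replicate 1 (0.0545) or BLM day 14 replicate 2 (0.212), and with limma-voom (0.0504). The silica step lost it without silica day 7 replicate 3 (adjusted p = 0.242), silica day 14 replicate 1 (0.0538) or silica day 14 replicate 3 (0.299), and in a fit of those 2 groups alone (0.0585).

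Grb10 encodes an adaptor that binds the insulin and IGF1 receptors and dampens their signal. The untreated libraries held 22.5, 16.6 and 17.8 CPM. BLM libraries rose to 29.9, 37.5 and 39.3 CPM at day 7 and to 57.2, 49.0 and 54.7 CPM at day 14, and stood at 22.2, 21.2 and 21.3 CPM at day 63, within the untreated range. Silica libraries held 61.2, 46.5 and 58.2 CPM at day 7, 36.8, 42.4 and 30.1 CPM at day 14 and 31.5, 27.2 and 29.8 CPM at day 63. The peak was at day 14 in BLM and at day 7 in silica, and all silica libraries lay above all untreated ones. The change against untreated was 0.90 ± 0.17 at BLM day 7 (adjusted p = 8.48e-05), 1.49 ± 0.16 at BLM day 14 (adjusted p = 8.76e-09) and 0.18 ± 0.17 at BLM day 63 (adjusted p = 0.585). In silica it was 1.54 ± 0.16 at day 7 (adjusted p = 2.52e-09), 0.93 ± 0.16 at day 14 (adjusted p = 6.73e-05) and 0.63 ± 0.17 at day 63 (adjusted p = 0.00422).

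Compared directly, silica exceeded BLM in Grb10 by 0.64 ± 0.15 at day 7 (adjusted p = 0.00314) and was below it at day 14 (-0.56 ± 0.15, adjusted p = 0.00695). The day 14 call was lost without silica day 14 replicate 3 (adjusted p = 0.0714). At day 63 the difference of 0.45 ± 0.16 did not pass (adjusted p = 0.0508), and passed in a fit of those 2 groups alone (adjusted p = 0.0412). From day 7 to day 14 Grb10 rose by 0.59 ± 0.15 in BLM (adjusted p = 0.00786; 0.0815 without BLM day 7 replicate 1) and changed by -0.61 ± 0.14 in silica (adjusted p = 0.00219), with an interaction of -1.20 ± 0.21 (adjusted p = 7.79e-05). From day 14 to day 63 it changed by -1.31 ± 0.15 in BLM (adjusted p = 7.56e-08) and by -0.30 ± 0.15 in silica (adjusted p = 0.336), with an interaction of 1.01 ± 0.22 (adjusted p = 0.000894).

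**Figure D2:**
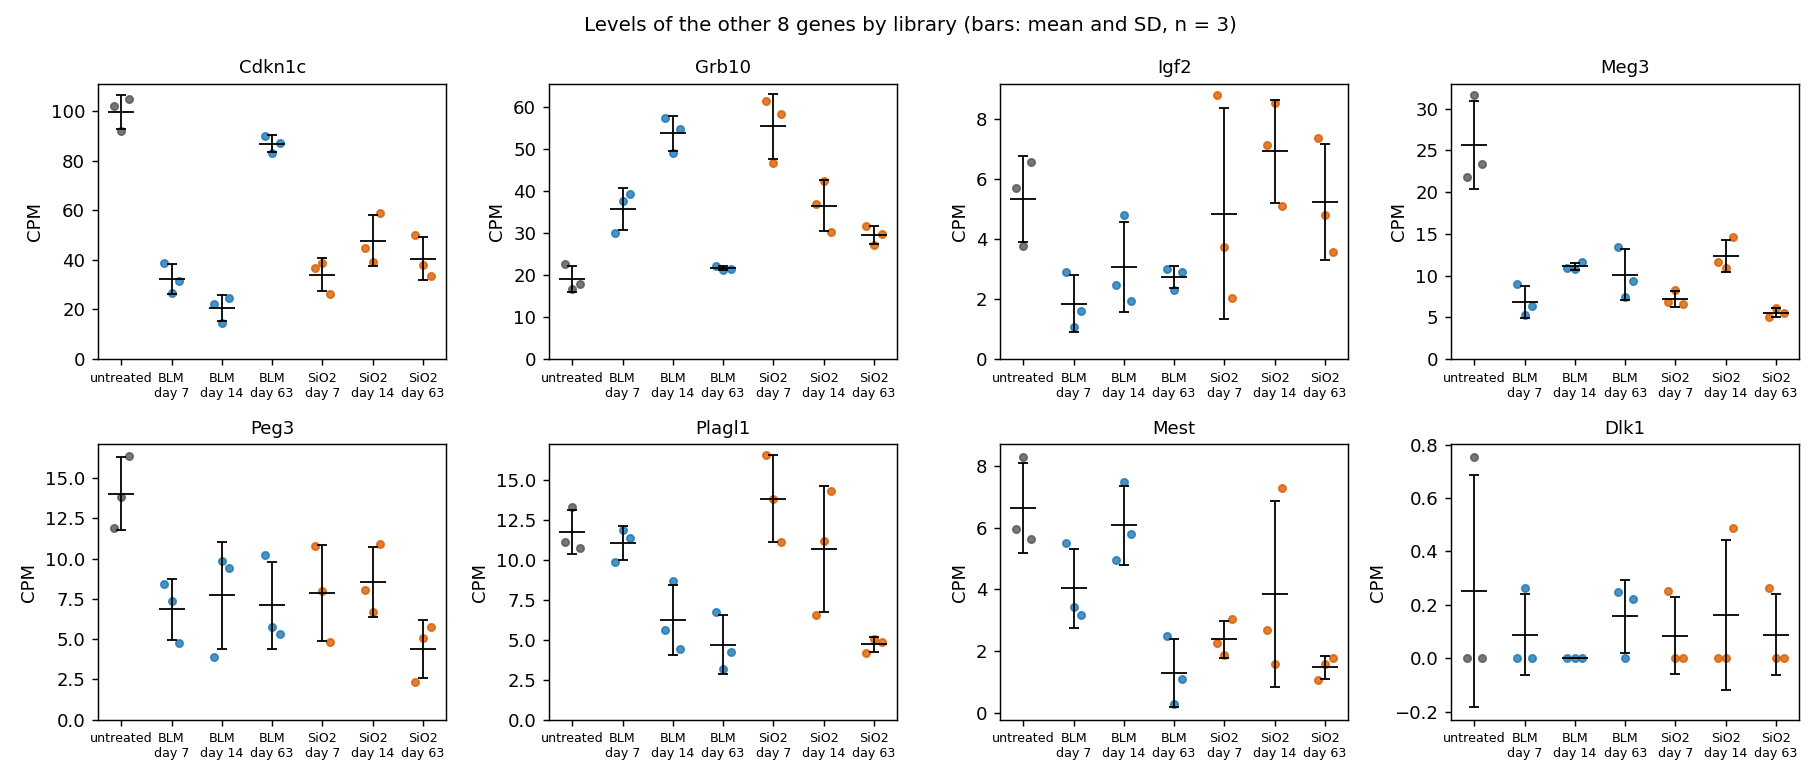
CPM of the 8 genes other than H19 in each of the 21 libraries by group; black bars are the mean and SD of 3 libraries. Cdkn1c is lowest at BLM day 14 (20.5 ± 5.20 CPM) and Grb10 is highest at silica day 7 (55.3 ± 7.78) and BLM day 14 (53.6 ± 4.21), while Meg3 is below untreated in all treated groups.

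Meg3, the noncoding RNA of the Dlk1 domain, fell in all 6 treated groups. The untreated libraries held 21.8, 31.7 and 23.4 CPM. BLM libraries held 8.995, 5.28 and 6.34 CPM at day 7, 10.9, 10.8 and 11.6 CPM at day 14 and 13.4, 7.46 and 9.34 CPM at day 63. Silica libraries held 6.77, 8.24 and 6.58 CPM at day 7, 11.6, 10.9 and 14.6 CPM at day 14 and 4.99, 6.12 and 5.56 CPM at day 63. No treated library reached the lowest untreated one. The change against untreated was -1.91 ± 0.23 (adjusted p = 1.21e-07), -1.21 ± 0.22 (adjusted p = 3.62e-05) and -1.35 ± 0.21 (adjusted p = 5.78e-05) at day 7, 14 and 63 of BLM. In silica it was -1.84 ± 0.22 (adjusted p = 5.83e-08), -1.05 ± 0.21 (adjusted p = 0.000297) and -2.21 ± 0.23 (adjusted p = 8.85e-09).

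Meg3 did not follow H19 back to the untreated level at BLM day 63. At that day silica was lower than BLM (-0.86 ± 0.25, adjusted p = 0.0168), a call lost without BLM day 63 replicate 1 (0.17), silica day 63 replicate 1 (0.0646) or silica day 63 replicate 3 (0.055). Within silica Meg3 rose by 0.79 ± 0.24 from day 7 to day 14 (adjusted p = 0.015; 0.0632 without silica day 7 replicate 3 and 0.0968 without silica day 14 replicate 3). It then fell by 1.15 from day 14 to day 63 (SE 0.25, adjusted p = 0.00622). The interaction from day 14 to day 63 was -1.02 ± 0.34 (adjusted p = 0.0336), which did not pass with DESeq2 (0.06), without the filter on low counts (0.0546) or without any of 6 libraries in turn. Those were BLM day 14 replicates 1 (0.0584) and 2 (0.0587), silica day 14 replicate 3 (0.104), BLM day 63 replicate 1 (0.148) and silica day 63 replicates 1 (0.0753) and 3 (0.0637). Rian, a noncoding RNA 32.2 kb from Meg3 on chromosome 12, was lower in 4 of the 6 treated groups, by 1.78 at silica day 63 (log2 fold change -1.78, adjusted p = 1.58e-06; 32.9 ± 2.19 against 9.38 ± 3.64 CPM). At silica day 14 its change was -0.03 (adjusted p = 0.946).

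Dlk1 itself gave 10 counts over all 21 libraries, in 7 of them, with at most 3 in any. The BLM day 14 libraries held none. At this depth no difference in Dlk1 was detectable, and a count of 0 over a group is compatible with up to 3 counts.

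Igf2 stayed low in every group. The untreated libraries held 5.70, 3.77 and 6.55 CPM. BLM libraries held 2.90, 1.06 and 1.58 CPM at day 7, 2.47, 4.78 and 1.93 CPM at day 14 and 2.99, 2.30 and 2.89 CPM at day 63. Silica libraries held 8.78, 3.72 and 2.03 CPM at day 7, 7.13, 8.53 and 5.10 CPM at day 14 and 7.36, 4.79 and 3.56 CPM at day 63. The BLM day 7 and day 63 libraries lay below all untreated ones and every silica group overlapped them. Only BLM day 7 passed against untreated (-1.48 ± 0.50, adjusted p = 0.0217). That call was lost without untreated replicate 1 (0.0718), untreated replicate 3 (0.0608), BLM day 7 replicate 2 (0.115) or BLM day 7 replicate 3 (0.0641). At silica day 7, where H19 stood at 120.0 ± 17.2 CPM, the Igf2 difference from untreated was -0.09 ± 0.41 (adjusted p = 0.877). Silica against BLM gave 1.39 ± 0.49 at day 7 (adjusted p = 0.0667; 0.0231 without the filter on low counts) and 1.16 ± 0.43 at day 14 (adjusted p = 0.0615). The day 14 difference passed without the filter (0.0236) and in a fit of those 2 groups alone (0.0412).

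Peg3 and Plagl1 encode zinc-finger transcription factors, and Mest encodes a protein of the alpha/beta-hydrolase family that is abundant in fetal mesoderm. Plagl1 and Mest had their lowest group means at day 63, and Peg3 at silica day 63.

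Peg3 stood at 11.9, 13.8 and 16.4 CPM in untreated libraries and at 2.37, 5.06 and 5.79 CPM at silica day 63. The other 5 treated groups spanned 3.88 to 10.9 CPM, below every untreated library. It fell at silica day 63 (-1.63 ± 0.34, adjusted p = 0.000417). It also passed at BLM day 7 (-0.997 ± 0.325, adjusted p = 0.0185), BLM day 14 (-0.81 ± 0.32, adjusted p = 0.0455), BLM day 63 (-0.96 ± 0.32, adjusted p = 0.0461) and silica day 7 (-0.81 ± 0.31, adjusted p = 0.0359). The difference at silica day 14 was -0.68 ± 0.31 (adjusted p = 0.115). Each of these 4 weaker calls was lost without single libraries. These were untreated replicate 3 (0.0591) or BLM day 7 replicate 3 (0.0941) for BLM day 7, and untreated replicate 2 (0.0906), untreated replicate 3 (0.114) or BLM day 14 replicate 1 (0.235) for BLM day 14. For BLM day 63 they were any untreated replicate (0.0648, 0.111 and 0.121) or BLM day 63 replicates 2 (0.158) or 3 (0.205). For silica day 7 they were untreated replicates 2 (0.0772) or 3 (0.0969) or silica day 7 replicates 2 (0.0695) or 3 (0.188).

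Plagl1 held 11.1, 13.3 and 10.8 CPM in untreated libraries. The libraries held 9.87, 11.9 and 11.4 CPM at BLM day 7, 16.6, 13.8 and 11.1 CPM at silica day 7 and 6.54, 11.2 and 14.3 CPM at silica day 14, and these 3 groups overlapped the untreated one. At BLM day 14 they held 5.65, 8.67 and 4.42 CPM, below all untreated libraries. At day 63 the libraries held 6.72, 3.16 and 4.23 CPM in BLM and 4.21, 5.06 and 4.90 CPM in silica, below all untreated ones. Plagl1 fell at BLM day 63 (-1.32 ± 0.29, adjusted p = 0.00249) and at silica day 63 (-1.32 ± 0.29, adjusted p = 0.000767), and also at BLM day 14 (-0.92 ± 0.29, adjusted p = 0.0115). The BLM day 14 call was lost without untreated replicate 2 (0.0583) or BLM day 14 replicate 3 (0.0851). Within silica the change from day 14 to day 63 was -1.19 ± 0.29 (adjusted p = 0.0164), a call lost without silica day 14 replicate 3 (0.144) or any silica day 63 replicate (0.0672, 0.0511 and 0.0555).

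Mest held 5.96, 8.29 and 5.62 CPM in untreated libraries, 2.49, 0.287 and 1.11 CPM at BLM day 63 and 1.05, 1.60 and 1.78 CPM at silica day 63. It was also low at silica day 7, with 2.26, 1.86 and 3.04 CPM, and all 9 of these treated libraries lay below the untreated ones. Mest fell at BLM day 63 (-2.31 ± 0.48, adjusted p = 0.00136), silica day 63 (-2.15 ± 0.47, adjusted p = 0.000718) and silica day 7 (-1.48 ± 0.44, adjusted p = 0.00643). BLM day 14 libraries held 4.94, 7.47 and 5.80 CPM, and the change from there to day 63 was -2.17 ± 0.49 (adjusted p = 0.000871). Copg2, which overlaps Mest on the opposite strand, passed in none of the 6 comparisons with untreated and held 95.7 ± 12.3 CPM in untreated and 117 ± 16.8 CPM at BLM day 63.

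**Figure D3:**
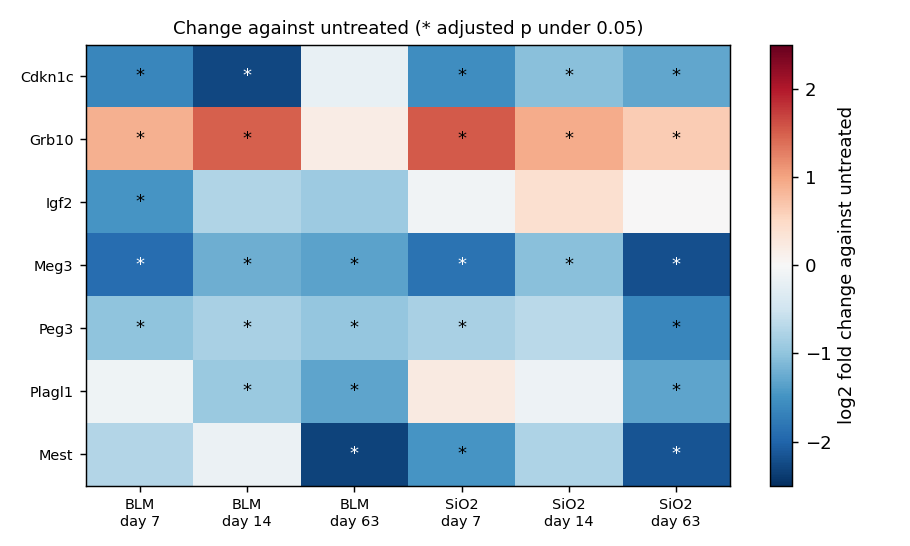
Log2 fold change against untreated of the 7 tested genes other than H19 (rows) in the 6 treated groups (columns); an asterisk marks an adjusted p under 0.05 in edgeR's quasi-likelihood test. Grb10 is the only row with positive called values, and Meg3 is called lower in all 6 columns.

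Counted over the 7 tested genes, 1 was higher and 4 were lower at BLM day 7, where 16.7% of all tested genes were higher and 14.9% lower. At BLM day 14 the counts were 1 and 4, beside 20.7% and 18.5% of all genes. At BLM day 63 they were 0 and 4, beside 6.02% and 5.48%, and the count of 0 was also 0 at an unadjusted p under 0.05 in edgeR, with DESeq2 and with limma-voom. At silica day 7 they were 1 and 4 (23.4% and 20.6% of all genes), at silica day 14 they were 1 and 2 (13.6% and 10.5%), and at silica day 63 they were 1 and 5 (15.3% and 12.5%). The 1 gene higher was Grb10 each time. The median log2 fold change of the 7 genes ran from -0.68 at silica day 14 to -1.32 at silica day 63, while that of all tested genes lay between 0.01 and 0.04. The 6 comparisons share the untreated libraries, and the choice of the genes bears on these counts.

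Between the models, 1 gene was higher in silica and none lower at day 7, where 5.29% of all genes were higher and 5.10% lower. At day 14 it was 1 and 1 (9.06% and 8.03%), and at day 63 it was 0 and 2 (9.13% and 6.44%). The 0 lower at day 7 was also 0 at an unadjusted p under 0.05 in edgeR, with DESeq2 and with limma-voom. The 0 higher at day 63 was 2 at an unadjusted p under 0.05 in edgeR (Grb10 and Igf2) and 0 with both other tools. In BLM, 2 of 7 changed from day 7 to day 14 (10.0% of all genes changed) and 3 of 7 from day 14 to day 63 (32.3%). In silica, 3 of 7 changed from day 7 to day 14 (23.3%) and 2 of 7 from day 14 to day 63 (3.52%). The interaction of model and time passed for 2 of 7 genes from day 7 to day 14 (19.2% of all genes) and for 3 of 7 from day 14 to day 63 (18.5%).

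Other genes listed as imprinted, 53 of which 32 were tested, moved in both directions. Whether each is imprinted in lung fibroblasts was not measured. Higher and lower calls numbered 2 and 9 at BLM day 7 (16.7% and 14.9% of all tested genes), 4 and 9 at BLM day 14 (20.7% and 18.5%) and 2 and 7 at BLM day 63 (6.02% and 5.48%). They numbered 3 and 12 at silica day 7 (23.4% and 20.6%), 4 and 6 at silica day 14 (13.6% and 10.5%) and 5 and 9 at silica day 63 (15.3% and 12.5%). Their median log2 fold change lay between -0.18 and -0.03. Cd81, a tetraspanin 385.9 kb from Igf2 on chromosome 7, fell in all 6 groups, from 162 ± 5.91 CPM in untreated to 52.6 ± 5.52 CPM at silica day 7 (-1.62, adjusted p = 2.88e-11). Slc22a3, an organic cation transporter, fell in all 6, from 40.0 ± 1.98 to 4.96 ± 0.795 CPM at silica day 7 (-3.005, adjusted p = 4.63e-11). Nnat, which encodes the small membrane protein neuronatin, rose in 5 of 6, from 8.28 ± 0.941 to 34.5 ± 11.7 CPM at silica day 7 (2.04, adjusted p = 1.44e-06). Igf2r, the receptor that clears IGF2 from the cell surface, rose in 5 of 6, from 116 ± 23.5 to 196 ± 7.10 CPM at silica day 63 (0.77, adjusted p = 6.15e-06). At BLM day 63 its change was 0.28 (adjusted p = 0.124).

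**Figure D4:**
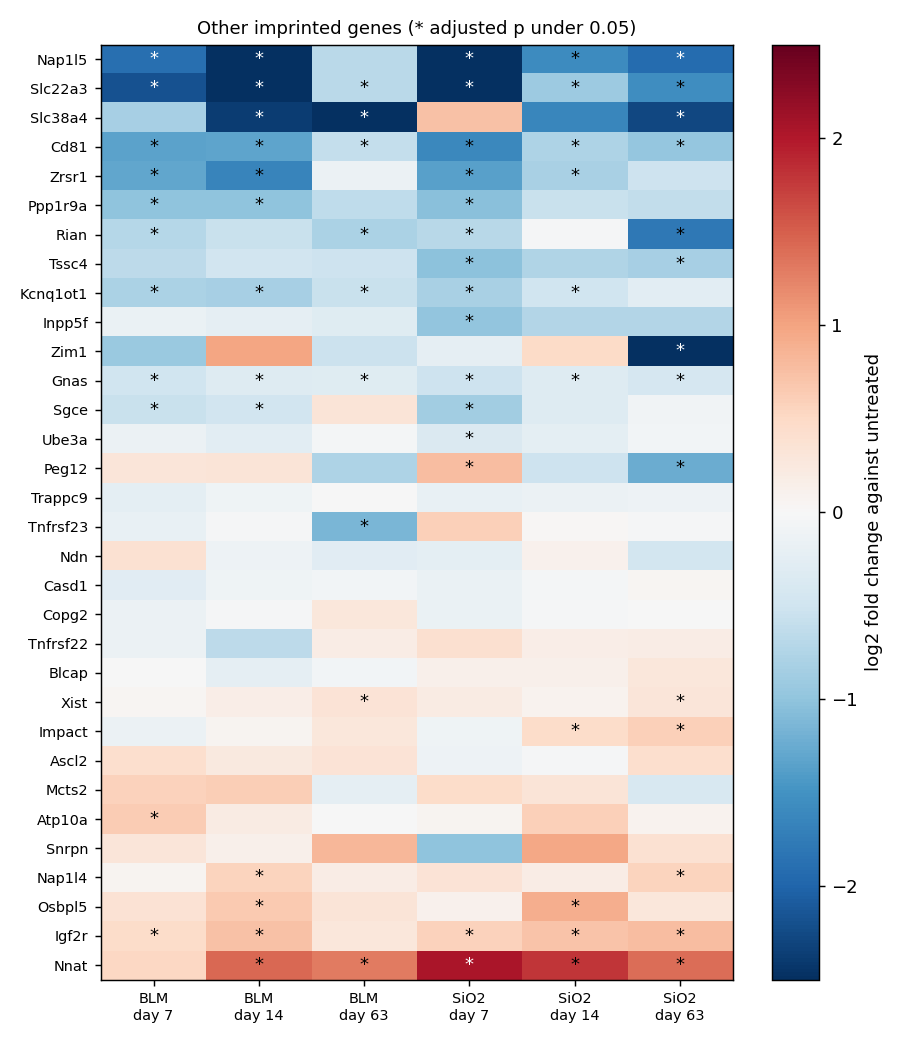
Log2 fold change against untreated of the 32 tested imprinted genes outside the set (rows, ordered by their mean over the 6 groups) in the 6 treated groups (columns); an asterisk marks an adjusted p under 0.05. Colours end at 2.5 in either direction, and the lowest values, such as -3.92 for Slc38a4 at BLM day 63, lie past that end.

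Of 11 tested genes of IGF ligands, receptors and adaptors, 3 were higher and 1 lower at BLM day 7 (16.7% and 14.9% of all tested genes), 4 and 2 at BLM day 14 (20.7% and 18.5%) and 0 and 1 at BLM day 63 (6.02% and 5.48%). In silica 5 were higher and 1 lower at day 7 (23.4% and 20.6%), 4 and 0 at day 14 (13.6% and 10.5%) and 3 and 1 at day 63 (15.3% and 12.5%). Each of these 2 counts of 0 by edgeR was 1 at an unadjusted p under 0.05, and 0 with DESeq2 and limma-voom. Igf1, the adult growth factor ligand, rose from 229 ± 30.7 CPM in untreated to 879 ± 267 CPM at silica day 7 (1.94 ± 0.17, adjusted p = 1.57e-10) and stood at 253 ± 29.4 CPM at BLM day 63 (adjusted p = 0.672). Igf2bp2, an RNA-binding protein known to bind Igf2 messages, rose from 1.796 ± 0.678 to 10.5 ± 3.05 CPM at silica day 7 (2.58 ± 0.40, adjusted p = 3.76e-06).

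The other cyclin-dependent kinase inhibitors did not fall with Cdkn1c as a group. Of 5 tested, 2 were higher at BLM day 7 (16.7% of all tested genes), 1 each at BLM day 14 (20.7%), BLM day 63 (6.02%), silica day 7 (23.4%) and silica day 14 (13.6%), and 2 at silica day 63 (15.3%), where 1 was lower (12.5%). Cdkn1a, which encodes p21, was higher at BLM day 7 (0.82 ± 0.15, adjusted p = 5.61e-05) and at BLM day 63 (0.64 ± 0.15, adjusted p = 0.00316). It was lower at silica day 63 (-0.48 ± 0.15, adjusted p = 0.0128). Cdkn2b, which encodes p15, was higher at silica day 14 (2.00 ± 0.53, adjusted p = 0.00512; 1.05 ± 0.724 against 3.80 ± 0.979 CPM).

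Of 16 tested factors of imprint maintenance and chromatin, 4 were higher and 0 lower at BLM day 7 (16.7% and 14.9% of all tested genes), 3 and 2 at BLM day 14 (20.7% and 18.5%) and 0 and 2 at BLM day 63 (6.02% and 5.48%). In silica 6 were higher and 1 lower at day 7 (23.4% and 20.6%), 0 and 0 at day 14 (13.6% and 10.5%) and 0 and 3 at day 63 (15.3% and 12.5%). At an unadjusted p under 0.05 in edgeR, the 0 lower at BLM day 7 was 3, the 0 higher at BLM day 63 was 1, the counts at silica day 14 were 1 higher and 2 lower, and the 0 higher at silica day 63 was 0. DESeq2 called 1 gene lower at silica day 14 and otherwise 0 in these directions, and limma-voom called 0. Dnmt1, the maintenance DNA methyltransferase, rose from 5.74 ± 1.76 CPM to 16.6 ± 2.38 CPM at silica day 7 (1.497 ± 0.267, adjusted p = 3.06e-05). Uhrf1, which guides that enzyme to replicated DNA, rose from 0.0837 ± 0.145 to 5.98 ± 1.11 CPM (adjusted p = 1.13e-06). Tet3, which oxidizes methylated cytosine, was lower at silica day 63 (-0.65 ± 0.11, adjusted p = 2.12e-05). At BLM day 63 it was lower too (-0.70 ± 0.11, adjusted p = 4.36e-05).

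Of 9 tested genes of a list of Dlk1 partners and fat-cell differentiation, 2 were higher and 2 lower at BLM day 7 (16.7% and 14.9% of all tested genes), 3 and 3 at BLM day 14 (20.7% and 18.5%) and 0 and 1 at BLM day 63 (6.02% and 5.48%). In silica 2 were higher and 3 lower at day 7 (23.4% and 20.6%), 2 and 1 at day 14 (13.6% and 10.5%) and 2 and 2 at day 63 (15.3% and 12.5%). The 0 higher at BLM day 63 was also 0 at an unadjusted p under 0.05 in edgeR, with DESeq2 and with limma-voom. Notch3, a receptor of the pathway that Dlk1 is known to modulate, rose at silica day 7 from 1.13 ± 0.814 to 10.6 ± 1.28 CPM (adjusted p = 1.22e-07). Notch3 is also a pericyte marker, and other markers of that list rose there with it, Cspg4 by 2.29 (log2, adjusted p = 3.31e-05) and Kcnj8 by 0.90 (adjusted p = 0.000306). The part of pericytes in the Notch3 level was not tested. Plin2, a lipid droplet coat protein, fell at silica day 7 from 390 ± 11.3 to 229 ± 12.0 CPM (adjusted p = 9.76e-07).

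Of 6 tested genes of a list of fetal growth genes that decline after birth, 3 were higher and 1 lower at BLM day 7 (16.7% and 14.9% of all tested genes), 4 and 1 at BLM day 14 (20.7% and 18.5%) and 0 and 1 at BLM day 63 (6.02% and 5.48%). In silica 4 were higher and 1 lower at day 7 (23.4% and 20.6%), 2 and 0 at day 14 (13.6% and 10.5%) and 3 and 1 at day 63 (15.3% and 12.5%). Both counts of 0 were also 0 at an unadjusted p under 0.05 in edgeR, with DESeq2 and with limma-voom. The 1 gene lower at silica day 7 was Gpc3, a heparan sulfate proteoglycan that restrains growth (-0.82 ± 0.15, adjusted p = 6.57e-05). Igf2bp2 (2.58 ± 0.40, adjusted p = 3.76e-06) and Ezh2 (0.66 ± 0.12, adjusted p = 2.81e-05) were among the 4 higher there. Igf2bp2 is also counted in the list of IGF genes and Ezh2 in that of imprint maintenance, so these lists share genes.

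The sorted cells carried the labelled identity: Col1a1, Col1a2 and 5 other fibroblast markers summed to 16580 to 30370 CPM per library, and Ptprc, Pecam1, Epcam and Mcam, the genes of 4 depleted surface markers, summed to 0 to 2.01 CPM. Of the 7 fibroblast markers, 3 were higher and 3 lower than untreated at BLM day 7 (16.7% and 14.9% of all tested genes). At BLM day 14 it was 4 and 3 (20.7% and 18.5%), and at BLM day 63 2 and 1 (6.02% and 5.48%). In silica it was 3 and 3 at day 7 (23.4% and 20.6%) and 4 and 1 at day 14 (13.6% and 10.5%). At silica day 63 it was 3 and 2 (15.3% and 12.5%). Tcf21 went from 166.8 CPM in untreated to 86.26 at silica day 63 (adjusted p = 3.74e-06). Markers of other cells differed between groups. A list of 6 mesothelial markers, all detected in every group, summed to 515 to 640 CPM per library in untreated, 269 to 375 at BLM day 7, 385 to 440 at BLM day 14 and 354 to 431 at BLM day 63. In silica it stood at 126 to 179 CPM at day 7, 395 to 515 at day 14 and 222 to 254 at day 63. Most of that sum was Upk1b, at a mean of 467 CPM in untreated, 190 at BLM day 7 and 105 at silica day 7. Of the 5 mesothelial markers tested, 5 were lower at silica day 7 (20.6% of all tested genes) and 4 at BLM day 63 (5.48%). At silica day 63 3 were lower (12.5%), and at BLM day 14 2 were lower (18.5%). At BLM day 7 (14.9% of all tested genes) and silica day 14 (10.5%) 1 was lower, Upk1b. In these groups Msln was higher, beside 16.7% and 13.6% of all tested genes. It went from 21.1 CPM in untreated to 35.1 at BLM day 7 (adjusted p = 0.0125) and 39.0 at silica day 14 (adjusted p = 0.00398). Pericyte and smooth muscle markers (8 of 8 in the files) summed to 31.1 to 37.9 CPM in untreated, with Rgs5, Mcam, Cnn1 and Higd1b at 0, to 49.9 to 58.0 at BLM day 7, 51.2 to 62.5 at BLM day 14 and 44.8 to 56.7 at BLM day 63. In silica they summed to 68.4 to 87.5 CPM at day 7, 61.2 to 97.8 at day 14 and 78.5 to 94.6 at day 63. Higd1b was also at 0 in every silica group and at BLM day 63. Mcam was at 0 at BLM day 63 and silica day 14, and Cnn1 at silica day 14. In this list Kcnj8 went from 29.35 CPM in untreated to 54.16, 71.91 and 67.67 CPM at silica day 7, 14 and 63. Of 4 tested, 2 were higher at BLM day 7 (16.7% of all tested genes), BLM day 14 (20.7%) and silica day 14 (13.6%). At silica day 7 (23.4%) and day 63 (15.3%) 3 were higher. At BLM day 63 edgeR called 0 higher, beside 6.02% of all tested genes. That count was 1 at an unadjusted p under 0.05, and 0 with DESeq2 and limma-voom. Of 8 myeloid markers, 7 were in the files and summed to 4.14 to 19.2 CPM in untreated, with Fcer1g and Itgam at 0. They summed to 28.15 to 38.35 CPM at BLM day 7, 13.8 to 22.1 at day 14 and 5.56 to 12.2 at day 63. In silica they summed to 12.7 to 18.1 CPM at day 7, 34.3 to 49.0 at day 14 and 27.3 to 37.5 at day 63. The 2 tested, Tyrobp and Laptm5, were called higher at BLM day 7 (16.7% of all tested genes) and silica day 14 (13.6%). Tyrobp alone was called higher at BLM day 14 (20.7%), silica day 7 (23.4%) and silica day 63 (15.3%). Lymphocyte markers (5 of 7 in the files) summed to 4.92 to 10.8 CPM in untreated and up to 72.6 CPM at silica day 7, with Cd3e and Cd79a at 0 there. That rise was in Ccl5, a chemokine (4.08 CPM in untreated against 55.1 at silica day 7), while Cd3d held 3.002 against 0.867 CPM (adjusted p = 0.172). Epithelial markers (8 of 8) summed to 6.78 to 12.2 CPM in untreated, 27.3 to 33.1 CPM at BLM day 7 and 20.25 to 28.34 CPM at silica day 7. In the other treated groups they summed to at most 10.33 CPM per library. The 2 tested, Sftpb and Sftpc, held 1.25 and 2.94 CPM in untreated and 9.76 and 12.8 CPM at BLM day 7. At silica day 7 they held 8.76 and 11.56 CPM. Both were called higher in these 2 groups, beside 16.7% and 23.4% of all tested genes. Epcam held at most 1.215 CPM in any library. The part of these cells in the changes of Cdkn1c, Meg3, Peg3, Mest and the other genes was not tested. In sorted bulk cells, fewer cells with a transcript and less transcript per cell cannot be told apart.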

How the data were processed

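RNA from sorted Col1a2-GFP-positive lung fibroblasts was measured by 3′SAGE-seq in 21 libraries, 7 groups of 3 by the deposited titles. The deposited files list, for each library on its own, raw whole-number read counts by symbol; the submitters' processing notes name Bowtie2 2.2.5 and mm10, and the counting program, annotation and strand setting are not given in the sources used here. Total counts ran from 2080636 to 4477283, and low counts limit the precision of Igf2, Mest and Dlk1. In R 4.3.3, edgeR 4.0.16 (filterByExpr by group, TMM) fitted a factor of 7 groups by quasi-likelihood over 11669 genes that held 99.68% of counts (14 residual degrees of freedom, biological coefficient of variation 12%). P-values were adjusted over all of them in each of 15 comparisons. CPM use TMM-scaled totals. Libraries of a group were checked against each other and none were duplicates.

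The members and lists were chosen with earlier results of these data known. Named were all 9 genes, the 5 genes most like H19 among those with a mean of at least 10 CPM in their highest group, and up to 3 genes of each other list with the smallest adjusted p. Copg2, the day 63 values of Igf2r and the silica day 14 value of Rian fall outside that rule and were picked after their values were seen. Correlations with H19 used log2 CPM with a prior count of 2. H19 ratios have exact (Clopper-Pearson) 95% counting intervals. Counts of 11669 genes were simulated for BLM day 7 against untreated, with the same coefficient of variation of 12% for every gene. In them 67 genes were changed 1.5-fold, 67 2-fold and 66 4-fold. Of these, 23.9% of 1.5-fold, 58.2% of 2-fold and 89.4% of 4-fold changes were recovered, and 4.2% of calls were false. In the measured data many more genes were called there (16.7% higher and 14.9% lower), so the rates may differ. Alternatives were other scalings, no filter, DESeq2 1.42.0, limma-voom (limma 3.58.1), a replicate block, the compared groups alone and leaving out each library.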

Additional observations from a re-analysis of the deposited data

Results flagged for a closer look

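Cdkn1c changed differently over time in the models by the interaction term of edgeR's quasi-likelihood fit (silica's change minus BLM's, log2 scale). The term was 1.15 ± 0.27 (SE) from day 7 to day 14 (adjusted p = 0.00237) and -2.33 ± 0.26 from day 14 to day 63 (adjusted p = 6.35e-08). For Grb10 the same terms were -1.20 ± 0.21 (adjusted p = 7.79e-05) and 1.01 ± 0.22 (adjusted p = 0.000894), of the opposite sign to those of Cdkn1c in both intervals. For Meg3 the term from day 14 to day 63 was -1.02 ± 0.34 (adjusted p = 0.0336).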

How the results depend on the processing

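Of 210 counts of calls under other scalings, no filter, DESeq2, limma-voom, the replicate block and the compared groups alone, 208 stayed within 1.5 times. The exceptions were silica against BLM at day 7 without the filter (2 members) and BLM day 14 against day 7 with limma-voom (1 member). Sign changes among these settings were confined to uncalled values: Igf2 at silica day 63 against untreated (0.0004 as reported; -0.023 with median-ratio size factors, -0.079 with upper quartile scaling, -0.031 with DESeq2, -0.024 with limma-voom) and, with limma-voom, Plagl1 in silica against BLM at day 63 (0.053) and the day 7 to 14 interaction of Peg3 (0.045) and Mest (-0.14). Same-numbered libraries did not deviate together (median r -0.000379 over 63 pairs, from -0.12 to 0.0616; 4 of 21 libraries correlated best with their own number). With the replicate block the members called were 4 at BLM day 14 (Peg3 adjusted p = 0.0565), 3 at BLM day 63 (Peg3 0.0589) and 3 in silica against BLM at day 14 (Igf2 0.0439), and no other call changed. Leaving out 1 library moved the members called to 3 to 5 at BLM day 7 and 3 to 5 at BLM day 14 against untreated, 1 to 2, 2 to 4 and 1 to 2 in silica against BLM at day 7, 14 and 63, 1 to 2 in BLM day 14 against day 7, 1 to 4 in silica day 14 against day 7 and 1 to 3 in silica day 63 against day 14. All genes called ranged from 795 to 1219 at BLM day 63, 661 to 1006 in BLM day 14 against day 7 and 201 to 325 in silica day 63 against day 14, beside 1343, 1169 and 411 with all libraries. H19 ratios to untreated ranged from 51.9 to 162 (BLM day 7), 36 to 112 (BLM day 14), 0.293 to 2.55 (BLM day 63), 235 to 734 (silica day 7), 10.5 to 33.8 (silica day 14) and 3.74 to 11.7 (silica day 63), from 2.86 to 16.2 for silica over BLM at day 63 and from 0.00639 to 0.0363 for BLM day 63 over day 14. Uncalled log2 fold changes that changed sign when 1 library was left out ranged as follows. Against untreated, Plagl1 ran from -0.16 to 0.024 (BLM day 7) and -0.40 to 0.11 (silica day 14), Mest from -0.31 to 0.070 (BLM day 14) and Igf2 from -0.32 to 0.23 (silica day 63) and -0.86 to 0.27 (silica day 7). In silica against BLM at day 7, Meg3 ran from -0.11 to 0.31, Cdkn1c from -0.058 to 0.23 and Peg3 from -0.13 to 0.43. Peg3 ran from -0.16 to 0.32 at day 14, and at day 63 Plagl1 ran from -0.20 to 0.33 and Mest from -0.25 to 0.97. Between days, Peg3 ran from -0.00995 to 0.48 (BLM, day 7 to 14), -0.13 to 0.43 (silica, day 7 to 14) and -0.51 to 0.048 (BLM, day 14 to 63), Mest from -0.17 to 1.10 (silica, day 7 to 14), Igf2 from -0.43 to 0.33 and Meg3 from -0.39 to 0.030 (BLM, day 14 to 63). Interactions from day 7 to 14 ran from -0.15 to 0.27 (Meg3), -0.76 to 0.51 (Mest), -0.71 to 0.54 (Igf2) and -0.35 to 0.25 (Peg3), and that of Igf2 from day 14 to 63 from -0.74 to 0.018. The cause of these shifts was not tested. The untreated H19 level rests on 4 counts, and Igf2 and Mest on 1 to 35 per library, which limits their precision.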
